A study of Mus musculus with 23 samples.

Results

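The comparison described here is that of a folic acid enriched diet with a control diet in the mouse ventral prostate 3 d after castration. It rests on 7 RNA sequencing libraries, 4 of the folic acid diet and 3 of the control diet, out of 23 in the series, and it covers all genes of the table. C57BL/6J mice were fed 4 mg folic acid per kg of diet as the control, or 24 mg per kg, from fetal life onward. At 7 weeks of age they were castrated, and the gland was taken 3 d later. The libraries of mice left intact at 7 weeks, and of mice taken 10 d after castration, 4 on each diet, serve here as the states before and after. The labels name no transgene, no sham operation and no litter, and they say that RNA came from 4 mice in each group. The control libraries are replicates 1, 3 and 4, since a further column, headed as control replicate 2 of this time, matches no label and was left out. The labels do not state that each library is 1 mouse, so p-values measure the spread between these libraries.

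The ventral prostate is a lobe of secretory glands in which luminal cells, resting on basal cells and wrapped in smooth muscle and fibroblasts, make the proteins of prostatic fluid. Androgen keeps the luminal cells alive and drives their secretory genes. Castration removes testicular androgen, and the gland regresses, a process called involution: secretory transcripts fall, stress, chemokine and basal-type transcripts rise, and many luminal cells die. Folic acid is a synthetic form of folate, which carries the 1-carbon units used for nucleotide synthesis and for making methionine, the source of methyl groups. The title of the series poses the question of whether extra dietary folic acid attenuates this regression.

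At 3 d, 9 of the 13412 genes tested differed between the diets, which is 0.0671% of them. Higher on the folic acid diet were 2 (0.0149%), Pdzk1 and Gpr155, and lower were 7 (0.0522%), Fabp5, Stat5a, Tsc22d3, Gipc2, Cxcl5, Gpx3 and Il13ra1. A gene is called here when its adjusted p is under 0.05 in edgeR's quasi-likelihood test, two-sided, with the Benjamini-Hochberg adjustment over all genes tested. At an unadjusted p under 0.05 there were 477 genes higher (3.56%) and 395 lower (2.95%). The libraries of the diets did not overlap for 368 genes in the higher direction (2.74%) and 475 in the lower (3.54%), and the median difference over all genes was -0.01 on the log2 scale. Libraries lay about as far from others of their own diet as from those of the other one. Their distances, root mean square log2 differences over the 500 genes with the highest variance among all libraries, had a median of 1.99 within the control diet, 1.96 within the folic acid diet and 2.0 between diets.

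**Figure D1:**
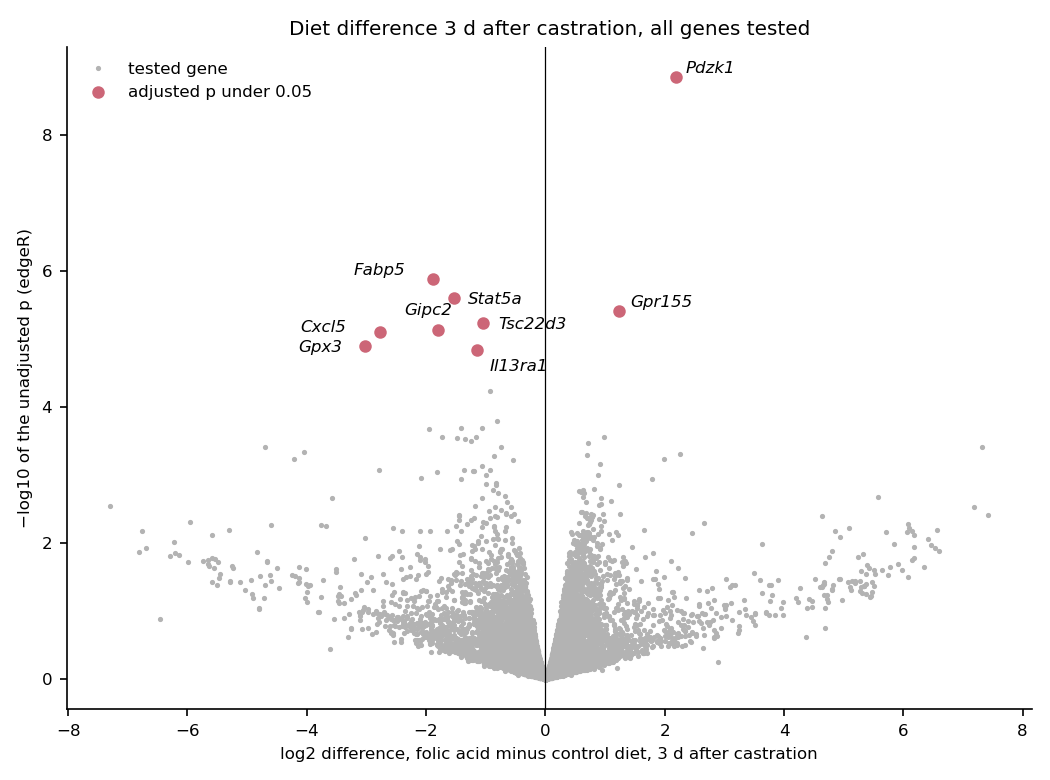
Each point is 1 of the 13412 genes tested, with the log2 difference between diets at 3 d (folic acid minus control) on the horizontal axis and the −log10 of its unadjusted edgeR p on the vertical axis. The 9 called genes, larger and named, stand above the rest, with Pdzk1 highest and 7 of the 9 to the left of 0.

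Assigned reads per library, in units of 1000000, came to 11.3 ± 1.46 on the control diet (SD, n = 3, from 9.69 to 12.4) and 9.66 ± 0.864 on the folic acid diet (SD, n = 4, from 8.83 to 10.7). Defining genes of the ventral prostate were abundant in all 7 libraries. Sbp, the spermine-binding secretory protein, stood between 261829.8 and 281785.6 CPM on the control diet and between 216453.3 and 424069.4 on the folic acid diet, where CPM is the count of a gene relative to the library total, scaled by TMM factors. Svs2, Svs4 and Svs5, secretory proteins of the seminal vesicle, had at most 13 counts in any of them, and Adipoq and Plin1 of fat cells had no count. Transcripts of skeletal muscle varied between libraries on both diets. Myh1 ranged from 0.0715 to 38.9 CPM on the control diet and from 0 to 36.2 on the folic acid diet. The summed skeletal muscle list ranged from 26.5 to 122.7 and from 16.9 to 116.7 CPM, and none of its 16 tested genes was called. Of the uroplakin genes of urothelium, Upk3a had no count and Upk2 at most 3 counts in any library. Upk1b ranged from 114.0 to 146.3 CPM on the control diet and from 154.4 to 181.9 on the folic acid diet. The 2 urothelial genes tested, Upk1a and Upk1b, were both higher without overlap between the diets, by 0.58 ± 0.26 and 0.37 ± 0.18 (edgeR adjusted p = 0.734 and 0.767). The part of any urothelial cells in the differences reported below was not tested.

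The promoter windows below are those of the called genes for which the stretch just before an annotated start holds no annotated exon. They belong to Il13ra1 and Tsc22d3, both on the X chromosome. Each is the 250 bases upstream of a RefSeq start on GRCm38.p6, written 5′ to 3′ on the gene's strand, and the capitals mark a match to the STAT5 element TTCNNNGAA.
Il13ra1 (chrX:36111858-36112107, plus strand): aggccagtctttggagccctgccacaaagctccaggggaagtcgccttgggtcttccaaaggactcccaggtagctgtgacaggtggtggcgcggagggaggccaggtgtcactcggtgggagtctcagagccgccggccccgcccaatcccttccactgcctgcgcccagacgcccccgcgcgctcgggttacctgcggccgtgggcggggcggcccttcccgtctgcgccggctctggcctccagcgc
Tsc22d3 (chrX:140548572-140548821, minus strand): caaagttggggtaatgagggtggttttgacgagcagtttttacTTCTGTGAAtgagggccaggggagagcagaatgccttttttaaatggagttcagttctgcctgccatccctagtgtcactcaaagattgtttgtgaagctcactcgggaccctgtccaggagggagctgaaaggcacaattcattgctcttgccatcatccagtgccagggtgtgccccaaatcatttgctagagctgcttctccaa
RefSeq start windows, which run from 250 bases before a start into the first bases after it, were found for 6 of the 9 called genes, 10 windows in all. Only the 250 bases before each start were searched for the elements. The element TTCNNNGAA, which reads the same on both strands, occurs there in 7.02% of the 32851 promoter windows of the reference and in 1 of the 10, the one of Tsc22d3 printed above. The androgen and glucocorticoid response element, an inverted repeat of GNACA around a spacer of 3 bases that also reads the same on both strands, occurs in 0.387% of all windows and in none of the 10. A match of letters is a description and no binding site was measured.

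Pdzk1 had the smallest p of all genes. It encodes a scaffold protein with PDZ domains that holds transporters and receptors at the apical membrane of epithelial cells. Its level was 16.7, 6.61 and 7.87 CPM in control replicates 1, 3 and 4, and 33.8, 47.6, 44.7 and 63.7 CPM in folic acid replicates 1 to 4. Every folic acid library stood above every control library, and control replicate 1 was the highest of the controls. The difference was 2.18 ± 0.26 on the log2 scale (SE), a ratio of 4.54, with an edgeR adjusted p of 1.89e-05. In intact mice Pdzk1 stood at 100.6 ± 17.1 CPM on the control diet and 151.8 ± 8.80 on the folic acid diet (SD, n = 4 each). By 10 d it had fallen on both diets, by 2.35 ± 0.23 and 1.92 ± 0.22 (log2, SE), to 19.7 ± 4.74 and 40.2 ± 5.73 CPM, and the diets differed by 1.03 ± 0.22 there (edgeR adjusted p = 0.0485). The gene spans chr3:96829284-96870926 on the plus strand (GRCm38), and the other-strand genes Cd160 and Gpr89 overlap it. Gpr89 differed by 0.45 ± 0.24 between diets (edgeR adjusted p = 0.816).

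Gpr155 encodes a lysosomal membrane protein that senses cholesterol. Control libraries held 65.7, 47.0 and 78.1 CPM, and folic acid libraries 158, 169, 164 and 110.0 CPM. The folic acid libraries were all higher than the controls, with replicate 4 the lowest of the 4. The difference was 1.24 ± 0.22 (log2, SE; edgeR adjusted p = 0.0131). In intact mice the level was 170.1 ± 13.4 CPM on the control diet and 184.2 ± 19.1 on the folic acid diet (SD, n = 4 each), and at 10 d it was 55.7 ± 11.8 and 63.5 ± 20.1 CPM. Folic acid replicates 1 to 3 at 3 d lay within the range of the 8 intact libraries, from 154.6 to 200.5 CPM, while the 3 control libraries lay within that of the 8 libraries of 10 d, from 34.5 to 79.3 CPM. Gpr155 lies at chr2:73341506-73386572, minus strand.

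Among the lower genes, Fabp5 and Cxcl5 are ones that rose with castration. Fabp5 encodes a fatty acid binding protein that carries fatty acids and retinoic acid inside the cell. It measured 534.0, 445 and 397 CPM in the control libraries and 104, 166, 149 and 76.8 CPM in the folic acid libraries. The lowest control library held more than the highest folic acid library. The difference was -1.89 ± 0.30 (log2, SE; edgeR adjusted p = 0.00871). From intact to 10 d Fabp5 rose by 3.84 ± 0.31 on the control diet, from 88.5 ± 19.7 to 1267.3 ± 170.9 CPM, and by 1.0 ± 0.28 on the folic acid diet, from 85 ± 23.5 to 169.6 ± 66.3 CPM (SD, n = 4 each). At 10 d the diets differed by -2.90 ± 0.29 (edgeR adjusted p = 7.18e-06), while in intact mice the difference was -0.06 ± 0.28. The gene lies at chr3:10012548-10016607, plus strand.

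Cxcl5 encodes a chemokine that draws neutrophils through the receptor Cxcr2. Its level was 41.8, 57.9 and 91.4 CPM in the control libraries and 9.24, 5.11, 7.57 and 15 CPM in the folic acid libraries. The control libraries were all higher, with replicate 4 the highest. The difference was -2.78 ± 0.45 (log2, SE; edgeR adjusted p = 0.0150). Intact libraries held little of it, 1.22 ± 0.551 CPM on the control diet and 0.636 ± 0.302 on the folic acid diet (SD, n = 4 each). By 10 d it had risen by 8.77 ± 0.59 and 7.84 ± 0.62 on the log2 scale, to 521.8 ± 258.2 and 158.8 ± 79.4 CPM, where the diet difference of -1.72 ± 0.40 did not pass (edgeR adjusted p = 0.162). Cxcl5 lies at chr5:90759360-90761624, plus strand, in a cluster of chemokine genes. Of the 10 genes tested within 500000 bases of it, 3 had an unadjusted p under 0.05, and none was called. All 3 were lower on the folic acid diet, as were 2.95% of all genes at that threshold. They were Cxcl15, Ppbp and Rassf6, named after their values were seen, and Cxcl15, a neighbouring chemokine, differed by -0.80 ± 0.38 (edgeR adjusted p = 0.762). Around the other called genes, such neighbours in either direction numbered from 0 of 8 (Gipc2) to 2 of 12 (Gpx3) and 2 of 35 (Stat5a). Cxcl5 was singled out after these counts were seen, and its neighbourhood was not tested as a group.

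Of the regulators among the called genes, Stat5a encodes a transcription factor that prolactin, growth hormone and cytokine receptors activate. Control libraries held 30.2, 31.0 and 28.2 CPM, and folic acid libraries 10.8, 8.67, 8.77 and 12.7 CPM. Both groups were tight and far apart. The difference was -1.54 ± 0.27 (log2, SE; edgeR adjusted p = 0.0112). Stat5a did not pass in intact mice, at -0.69 ± 0.25 (edgeR adjusted p = 0.706), or at 10 d, at -0.26 ± 0.25. It lies at chr11:100859351-100885169, plus strand, and its end overlaps that of Stat3 on the other strand, which differed by -0.20 ± 0.24 (edgeR adjusted p = 0.937). The close paralog Stat5b, with which reads can be shared, differed by -0.41 ± 0.17 (edgeR adjusted p = 0.731) and was named after its value was seen.

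Tsc22d3 encodes the glucocorticoid-induced leucine zipper protein, whose transcription glucocorticoids and androgens raise. Its levels were 99.8, 102 and 97.0 CPM in the control libraries and 55.2, 45.5, 41.9 and 51.1 CPM in the folic acid libraries. The controls differed little among themselves and were all higher. The difference was -1.04 ± 0.19 (log2, SE; edgeR adjusted p = 0.0150). In intact mice it was -1.02 ± 0.18 (edgeR adjusted p = 0.00845), with means of 254.4 ± 31.1 and 125.1 ± 28.3 CPM (SD, n = 4 each), and at 10 d -0.58 ± 0.18 (edgeR adjusted p = 0.467). Of the 19 glucocorticoid-responsive genes tested, Tsc22d3 alone was called at 3 d, 11 lay above 0, and the median was 0.17 against -0.01 for all genes. Fkbp5, a receptor co-chaperone that both hormones induce, differed by 0.17 ± 0.21. Tsc22d3 lies at chrX:140539528-140600659, minus strand.

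Il13ra1 encodes a receptor chain for interleukins 4 and 13. Its level was 94.7, 55.6 and 76.8 CPM in control libraries and 38.6, 26.2, 29.0 and 43.0 CPM in folic acid libraries. The difference was -1.14 ± 0.22 (log2, SE; edgeR adjusted p = 0.0216). Control libraries varied more than folic acid libraries, without overlap. In intact mice the difference was -2.12 ± 0.22 (edgeR adjusted p = 1.08e-06) and at 10 d -0.74 ± 0.21 (edgeR adjusted p = 0.314). The control level stayed between 74.1 and 78.2 CPM in the means of all 3 states, while the folic acid mean was 18.0 in intact mice, 34.2 at 3 d and 44.5 at 10 d. Il13ra1 lies at chrX:36112110-36171259, plus strand.

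Gpx3 encodes a glutathione peroxidase secreted into extracellular fluid, which reduces peroxides. It measured 185, 75.4 and 90.2 CPM in the control libraries and 12.1, 14.1, 7.33 and 23.7 CPM in the folic acid libraries. Control replicate 1 held the most, and all controls were above all folic acid libraries. The difference of -3.02 ± 0.51 (log2, SE; edgeR adjusted p = 0.0213) was the largest of the 9. It was -3.47 ± 0.49 in intact mice (edgeR adjusted p = 0.00722) and -0.74 ± 0.45 at 10 d (edgeR adjusted p = 1.0). On the control diet Gpx3 fell by 2.68 ± 0.47 from intact to 10 d, while on the folic acid diet, where it was low from the outset at 28.3 ± 11.8 CPM (SD, n = 4), it differed by 0.05 ± 0.46. In the list of glutathione and antioxidant genes 38 were tested, Gpx3 alone was called, and the median was -0.04. Gpx3 lies at chr11:54902453-54910377, plus strand.

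Gipc2 encodes a PDZ domain adaptor of a family that takes part in membrane protein traffic. Control libraries held 17.2, 24.9 and 24.8 CPM, and folic acid libraries 9.41, 5.59, 3.12 and 7.11 CPM. All controls were higher, and folic acid replicate 3 was the lowest library. The difference was -1.81 ± 0.34 (log2, SE; edgeR adjusted p = 0.0150). It was -0.98 ± 0.31 in intact mice (edgeR adjusted p = 0.591) and -2.51 ± 0.34 at 10 d (edgeR adjusted p = 9.46e-05). Gipc2 fell from intact to 10 d on both diets, by 1.02 ± 0.31 and 2.54 ± 0.34. It lies at chr3:152093533-152166230, minus strand. No other gene tested within 500000 bases of any of the 9 called genes was called.

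**Figure D2:**
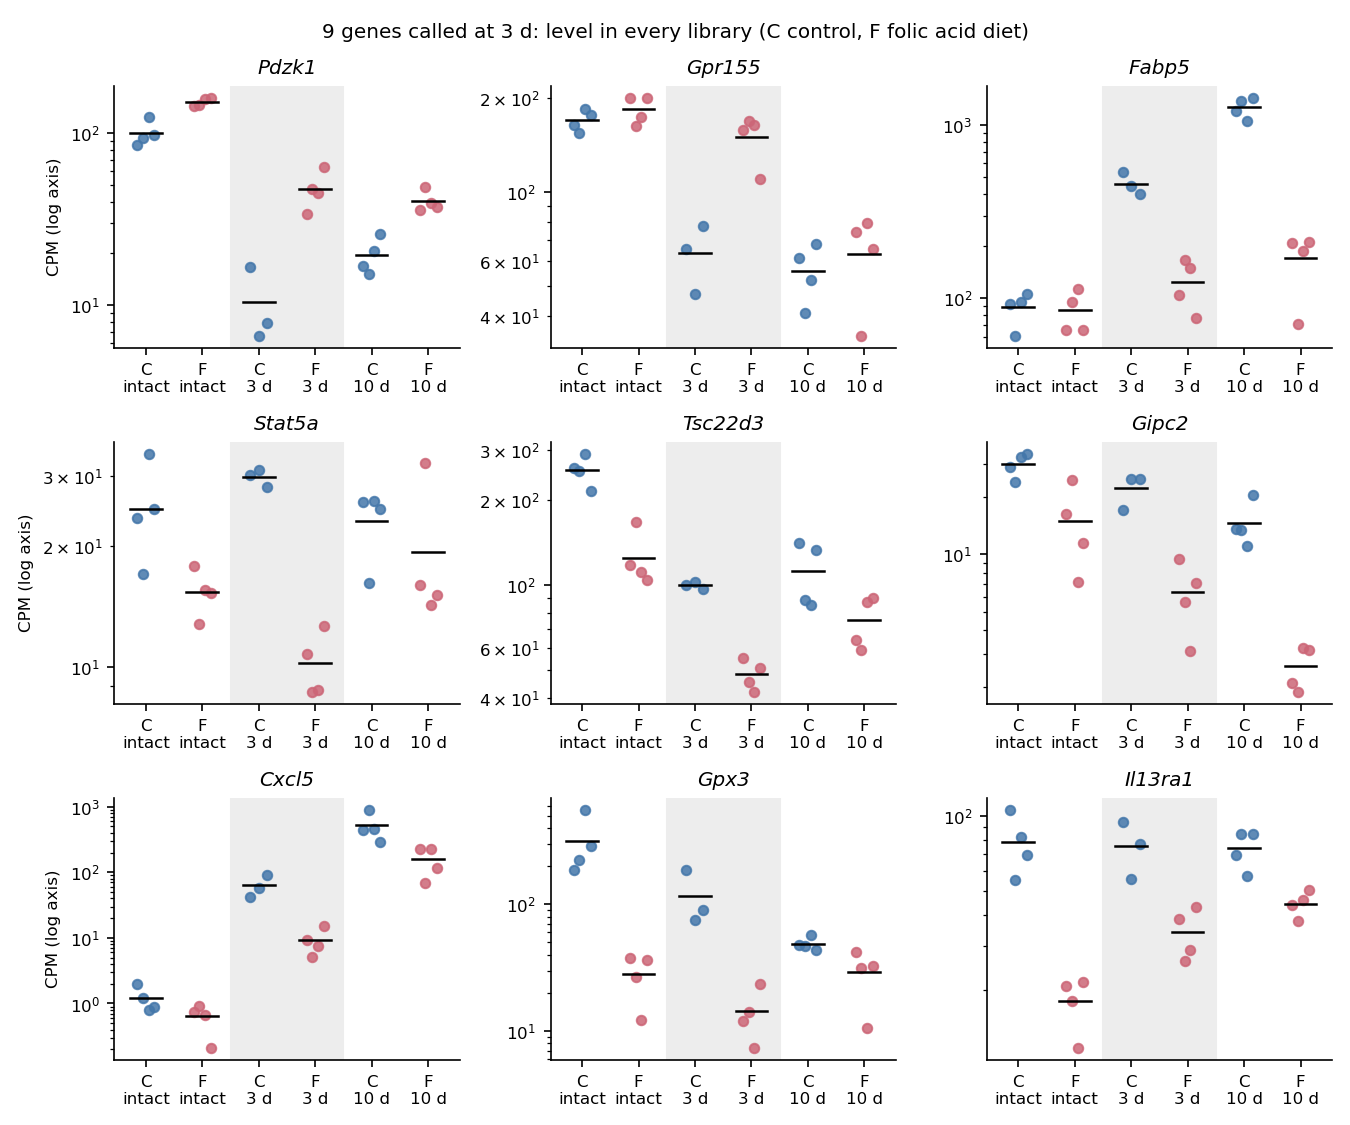
Each panel shows 1 of the 9 genes called at 3 d, with CPM on a logarithmic axis for every library of the 6 groups (C control diet, F folic acid diet), bars at the group means and the 3 d groups shaded. At 3 d no control library overlaps with a folic acid library in any panel, while Gpr155 and Stat5a overlap between diets in intact mice and at 10 d.

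The next question was whether these differences were present before castration and at 10 d, in contrasts that share no library with that at 3 d, although all libraries enter 1 model and so share its estimate of the spread. All 9 genes differed in the same direction in intact mice and all 9 at 10 d, where over all genes 55.5% and 49.4% had the same sign as at 3 d. Tsc22d3, Gpx3 and Il13ra1 were called in intact mice, where 7 genes were called in all (0.0522%). Pdzk1, Fabp5 and Gipc2 were called at 10 d, where 16 were called (0.119%). Gpr155, Stat5a and Cxcl5 were called at 3 d only, which does not by itself show that they differed between states. Read the other way, 6 of the 7 genes called in intact mice and all 16 called at 10 d had the same sign at 3 d, 1 of the 16 at 0.00.

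Tested directly, no gene had a diet difference at 3 d that differed from that in intact mice or from that at 10 d at an edgeR adjusted p under 0.05. At an unadjusted p under 0.05 there were 650 genes against intact mice (4.85%) and 693 against 10 d (5.17%), and DESeq2 called 3 and 0. Of the 9 genes, 5 had an unadjusted p under 0.05 in each of these tests. The 9 were chosen for a large difference at 3 d, which is part of both contrasts. A share above that of all genes is thus built into the choice and does not show that the diet difference depends on state. For Pdzk1 the difference at 3 d minus that in intact mice was 1.59 ± 0.33 (edgeR unadjusted p = 3.23e-05, adjusted 0.217), and for Fabp5 it was -1.83 ± 0.40 (edgeR unadjusted p = 0.000136, adjusted 0.455). The difference at 3 d minus that at 10 d was 1.05 ± 0.30 for Gpr155 and -1.28 ± 0.36 for Stat5a (edgeR adjusted p = 0.859 for both). The smallest p against intact mice was that of Kcnn4, a calcium-activated potassium channel, which stood at 10.9, 12.9 and 9.02 CPM in the 3 d control libraries and at 3.08, 3.57, 6.01 and 5.89 in the folic acid libraries. Its difference was -1.24 ± 0.31 at 3 d and 1.04 in intact mice, and the contrast of both was -2.28 ± 0.41 (edgeR adjusted p = 0.0602). Over all 13412 genes the differences at 3 d had a Pearson correlation of 0.10 with those in intact mice and -0.02 with those at 10 d, a description across genes, which share their libraries.

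**Figure D3:**
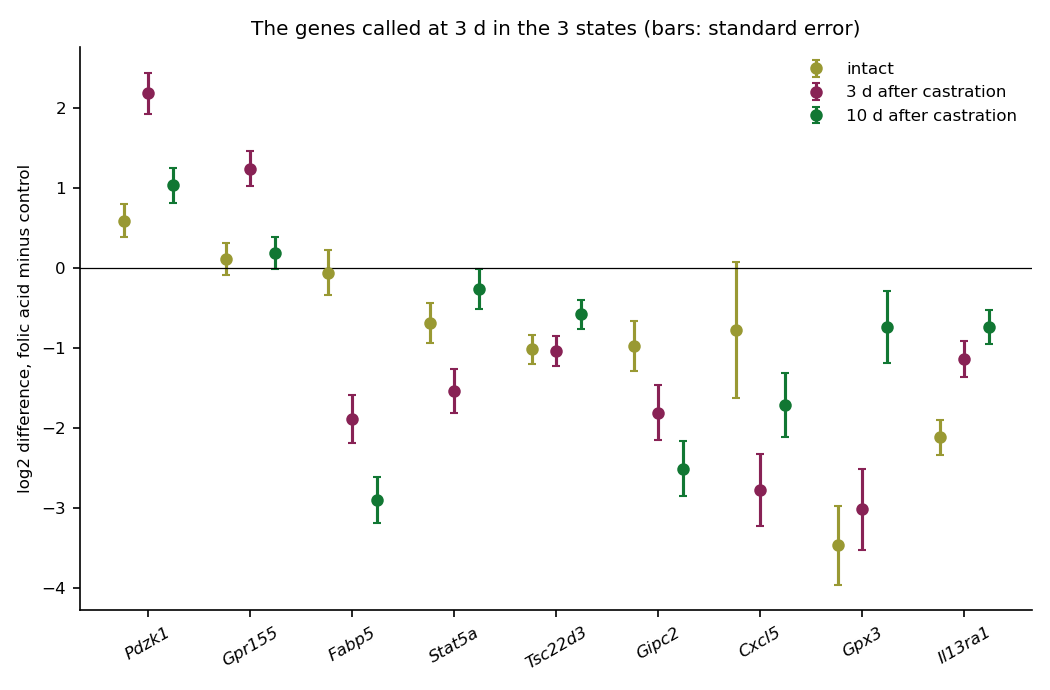
The log2 difference between diets (folic acid minus control, vertical axis) is shown for the 9 genes called at 3 d in intact mice, at 3 d and at 10 d, with bars of 1 standard error. All points lie on the side of 0 on which the gene lies at 3 d, from -3.47 for Gpx3 in intact mice to 2.18 for Pdzk1 at 3 d, and some bars cross 0.

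The course of involution was described with genes that changed with castration on both diets between intact mice and 10 d, in a fit of the intact and 10 d libraries alone, with an edgeR adjusted p under 0.05 and a log2 change of at least 1. Of the 263 genes that rose by 10 d, 158 (60.1%) were lower on the folic acid diet at 3 d, and of the 435 that fell by 10 d, 265 (60.9%) were higher. Over all genes tested 51.2% were lower and 48.6% higher. The medians were small, -0.10 for the genes that rose and 0.09 for the genes that fell, on the log2 scale. With no minimum change at 10 d the median of the genes that rose was -0.008. Among the genes that rose 2 were called lower, Cxcl5 and Fabp5, and none higher, and 27 (10.3%) were lower and 7 (2.66%) higher at an unadjusted p under 0.05. Among those that fell 2 were called higher, Pdzk1 and Gpr155, and 1 lower, Gipc2, and 30 (6.90%) were higher and 15 (3.45%) lower at an unadjusted p under 0.05.

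An involution score was taken for each library by subtracting the mean log2 CPM of the genes that fell from that of the genes that rose. It was 0.32, 0.50 and 0.39 in control replicates 1, 3 and 4 at 3 d, and 0.24, 0.07, 0.12 and 0.26 in folic acid replicates 1 to 4. The folic acid libraries were all lower, and the nearest pair was control replicate 1 and folic acid replicate 4. The separation came from the genes that rose, whose mean log2 CPM was 4.40, 4.40 and 4.39 against 4.29, 4.22, 4.11 and 4.34, while that of the genes that fell overlapped, at 4.08, 3.90 and 4.0 against 4.04, 4.15, 3.99 and 4.08. Of the genes that rose 10 are members of the fibroblast or macrophage marker lists described below, 3 and 7 of them, and all 10 lay below 0 at 3 d. Without the members of the fibroblast, macrophage, endothelial, basal and smooth muscle lists the score was 0.32, 0.47 and 0.40 in the control libraries against 0.27, 0.08, 0.13 and 0.27, an alternative chosen after seeing the data. For the score with these list members kept in, the means were 0.40 ± 0.09 (SD, n = 3) and 0.17 ± 0.09 (SD, n = 4), a difference of -0.23. The values that follow are also of that score. From intact mice to 10 d the score of the control diet moved by 4.03, from -2.77 ± 0.12 to 1.25 ± 0.15 (SD, n = 4 each). On the folic acid diet it was -2.80 ± 0.19 in intact mice and 1.22 ± 0.25 at 10 d, both means within the range of the control libraries of that state. The genes were chosen in these same intact and 10 d libraries, for a change on both diets. That choice largely fixed the span of 4.03 and the likeness of the diets in these states. Only the 3 d scores come from libraries outside the choice. No test was made of the score. With library totals alone as the scale, which moved the median of all genes to -0.10, the median of the genes that rose was -0.18 and that of the genes that fell 0.003.

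**Figure D4:**
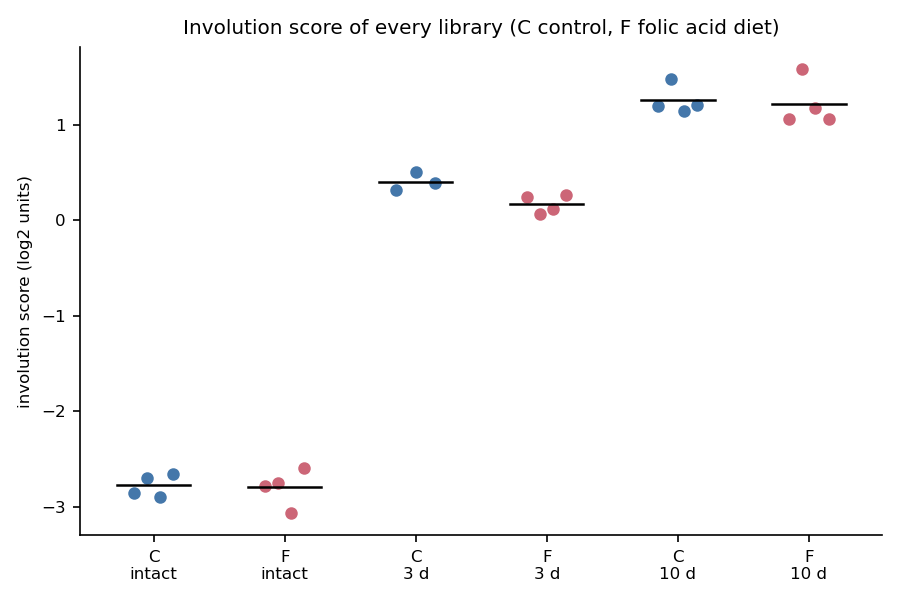
The involution score of each of the 23 libraries (log2 units, vertical axis) is shown by group (C control diet, F folic acid diet), with bars at the means. At 3 d the 3 control libraries lie between 0.32 and 0.50 and the 4 folic acid libraries between 0.07 and 0.26, while the diets overlap in intact mice and at 10 d. The genes of the score were chosen in the intact and 10 d libraries, for a change on both diets.

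Secretory and luminal genes, which androgen maintains, showed no called difference at 3 d. Of the 31 prostate secretory and androgen-induced genes tested, 18 lay above 0 and 13 below, with a median of 0.06, and with library totals as the scale 15 and 16 did, with a median of -0.03. Sbp differed by 0.24 ± 0.32, Spink3, a secreted protease inhibitor, by 0.35 ± 0.27, and Pbsn, probasin, by -0.36 ± 1.18. Crabp1, a retinoic acid binding protein, stood at 16.9, 7.45 and 19.2 CPM in the control libraries against 6.34, 6.46, 5.17 and 3.65, with no overlap, and differed by -1.42 ± 0.32 (edgeR adjusted p = 0.201, DESeq2 adjusted p = 0.00437). At 10 d, where Crabp1 was called, it differed by -2.90.

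Genes known to rise with castration numbered 27 among those tested, of which 20 lay below 0 and 1, Cxcl5, was called. Sphk1, the kinase that makes sphingosine 1-phosphate, held 11.8, 13.7 and 9.02 CPM in the control libraries and 3.43, 3.85, 1.68 and 2.81 in the folic acid libraries. The groups did not overlap, and the difference of -1.96 ± 0.47 did not pass (edgeR adjusted p = 0.201, DESeq2 adjusted p = 0.00739). Clu, clusterin, a chaperone long used as a marker of involution, differed by -0.07 ± 0.78, and Car2, a carbonic anhydrase, by -0.03 ± 0.28. At 3 d Clu ranged from 205.6 to 294.4 CPM on the control diet and from 235 to 267.8 on the folic acid diet. On the control diet Clu did not rise with castration here, at 251.2 ± 37.8 CPM in intact mice and 249 ± 108.5 CPM at 10 d (SD, n = 4 each). On the folic acid diet it was 381 ± 96.9 CPM in intact mice and 902.9 ± 1465.7 CPM at 10 d, where replicate 2 held 3101 CPM. All groups enter the estimate of spread behind the SE of 0.78. The median of the list was -0.11, and it ran from -0.29 without folic acid replicate 1 to -0.06 without control replicate 1. In the list of 39 cell death genes none was called, 20 lay above 0 and 19 below, and the median was 0.02. Bax, a pro-apoptotic protein of mitochondria, differed by 0.64 ± 0.24 (edgeR adjusted p = 0.709). The anti-apoptotic Bcl2l2 differed by 0.39 ± 0.16 (edgeR adjusted p = 0.716), and the pro-apoptotic Bid by -1.34 ± 0.67 (edgeR adjusted p = 0.774). Mki67, a marker of cycling cells, was below 10 CPM in all 7 libraries and differed by 0.49 ± 0.76.

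Genes of folate transport and 1-carbon metabolism were split evenly. Of the 42 tested, 21 lay above 0 and 21 below, none was called, and 1 had an unadjusted p under 0.05. That gene was Slc19a1, the reduced folate carrier that takes folate into cells. Its level was 9.80, 8.91 and 6.54 CPM in the control libraries and 4.49, 3.28, 0.841 and 5.98 in the folic acid libraries. The groups did not overlap, though the gap between 6.54 and 5.98 was small, and the difference was -1.19 ± 0.39 (edgeR adjusted p = 0.598). Tyms, thymidylate synthase, differed by 0.48 ± 0.25, Mat2a, which makes S-adenosylmethionine, by 0.37 ± 0.19 (edgeR adjusted p = 0.795), and Dnmt1, the maintenance DNA methyltransferase, by 0.12 ± 0.25. Among 17 genes of DNA methylation and demethylation none was called, 11 lay above 0, and the median was 0.12.

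The lists of the secretory pathway had more genes above 0 than below, by a margin that moved with the scaling and with 1 library. Of 36 genes of protein translocation into the endoplasmic reticulum and of glycosylation, 26 lay above 0 and none was called, with a median of 0.11. With library totals as the scale 19 of the 36 lay above 0, with a median of 0.01, and without control replicate 3 it was also 19, with a median of 0.05. Their summed level was 6078.3, 5943.5 and 6074.8 CPM in the control libraries and 6769.8, 7657.1, 7656.0 and 6309.7 in the folic acid libraries. All folic acid libraries were higher, by little in replicate 4. Alg5, an enzyme of the glycan precursor, stood at 57.9, 49.4 and 51.1 CPM against 73.2, 97.0, 82.1 and 66.8, and differed by 0.60 ± 0.17 (edgeR adjusted p = 0.446). Of 38 chaperones and genes of the unfolded protein response 28 lay above 0, or 17 with library totals and 21 without control replicate 3, and none was called. In cholesterol synthesis and uptake 20 of 30 genes lay below 0, with a median of -0.14, which was -0.05 without control replicate 1 and -0.06 without control replicate 4.

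Single genes of other lists stood apart between the diets without passing the test. Rrm2, a subunit of ribonucleotide reductase, which makes the deoxynucleotides for DNA, was at 2.0, 0.922 and 1.06 CPM in the control libraries and at 6.60, 8.29, 2.04 and 4.39 CPM in folic acid replicates 1 to 4. The difference was 1.99 ± 0.52 (edgeR adjusted p = 0.262, DESeq2 adjusted p = 0.0421). The DNA replication genes tested, Rrm2 among them, were divided, with 19 of 37 above 0 and a median of 0.02. Stc2, a secreted glycoprotein induced by stress, held 16.9, 17.7 and 21.2 CPM in the control libraries and 6.60, 12.6, 8.41 and 8.13 in the folic acid libraries. It differed by -1.05 ± 0.32 (edgeR adjusted p = 0.486), by -1.13 in intact mice and by -0.80 at 10 d, with libraries apart at 3 d. Fosl2, a subunit of the transcription factor AP-1, stood at 179, 199 and 200.1 CPM against 138, 129, 88.8 and 128, again without overlap, and differed by -0.67 ± 0.20 (edgeR adjusted p = 0.486).

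Nr4a1, an orphan nuclear receptor among the immediate-early genes, lay the other way, at 1.43, 1.23 and 3.36 CPM in the control libraries and 5.10, 8.48, 7.93 and 3.65 in the folic acid libraries (1.65 ± 0.57, edgeR adjusted p = 0.631). Klf9, a transcription factor that glucocorticoids induce, stood at 20.8, 23.0 and 19.7 CPM against 31.2, 32.4, 26.8 and 31.1, and differed by 0.52 ± 0.20 (edgeR adjusted p = 0.716), opposite in sign to Tsc22d3. Mt2, a metallothionein, which binds zinc and copper, is an example of a difference made by 1 library. It stood at 366, 178 and 1020.9 CPM in the control libraries and between 269 and 337 in the folic acid libraries, differed by -0.78 ± 0.43, and by 0.16 without control replicate 4. Isg15, a ubiquitin-like protein induced by interferon, ran from 5.05 to 32.8 CPM within the folic acid libraries alone. Of 50 nuclear genes of the respiratory chain none was called, 33 lay above 0, or 24 with library totals as the scale, and the median was 0.09, or 0.02 without control replicate 3.

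Markers of fibroblasts and their matrix lay almost all on the lower side on the folic acid diet, without a called gene. DESeq2 called 1 of them, Pi16, and edgeR with only the groups compared called 1, Col6a3, named after its value was seen. Of 36 fibroblast and extracellular matrix genes tested 35 lay below 0, with a median of -0.88. For 9 of them all folic acid libraries were below all control libraries, as for 3.54% of all genes. An unadjusted p under 0.05 was found for 11, all lower, as for 2.95% of all genes in that direction. Their summed level was 2900.3, 3624.0 and 2227.1 CPM in control replicates 1, 3 and 4, and 1652.1, 1142.3, 1411.0 and 1938.1 CPM in folic acid replicates 1 to 4. Every control library was higher than every folic acid library. Dcn, the matrix proteoglycan decorin, stood at 229, 290.0 and 181 CPM against 126, 112, 112 and 159, and differed by -0.88 ± 0.25 (edgeR adjusted p = 0.439). Fbln1, a glycoprotein of basement membranes and elastic fibres, differed by -1.18 ± 0.36 (edgeR adjusted p = 0.564). Pi16, a marker of a fibroblast subset, stood at 6.22, 9.52 and 2.12 CPM in the control libraries and at 0.88, 0, 0 and 0.468 in the folic acid libraries (edgeR adjusted p = 0.245, DESeq2 adjusted p = 0.0163). The collagen genes Col1a1 and Col3a1 ranged from 67.9 to 109.2 and from 111.1 to 277.8 CPM on the control diet, and from 19.8 to 62.9 and from 38.8 to 136.3 on the folic acid diet. In whole gland RNA, fewer cells of a type and less RNA per cell cannot be told apart.

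The same list had a median of -0.61 in intact mice and 0.44 at 10 d. Without control replicate 3 its median at 3 d was -0.62 and 5 of its genes were lower at an unadjusted p under 0.05, and without folic acid replicate 2 or replicate 3 it was 6. Over the 7 fits that each leave out a library the median ran from -1.18 to -0.62 and at least 33 of the 36 genes lay below 0. The summed level of this list and the 9 called genes thus separate the diets in the same 7 libraries, and the part of the stroma in the differences of the called genes was not tested.

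Markers of macrophages, endothelium, basal cells and smooth muscle overlapped between the diets in their summed levels. Of 27 macrophage genes 24 lay below 0 with a median of -0.75, which was -0.37 without control replicate 3, and their summed level overlapped, from 375.5 to 779.8 CPM on the control diet and from 469.5 to 492.7 on the folic acid diet. Lyz2, lysozyme of myeloid cells, stood at 24.2, 45.2 and 20 CPM against 6.51, 11.3, 6.49 and 11.7, with a difference of -1.73 ± 0.41 (edgeR adjusted p = 0.211, DESeq2 adjusted p = 0.0236), and reads can be shared with its near copy Lyz1. Csf1r, the receptor of macrophage growth factor, differed by -1.17 ± 0.54. Of 22 endothelial genes 19 lay below 0 with a median of -0.54, of 14 basal genes 11 with a median of -0.39, and of 16 smooth muscle genes 13 with a median of -0.22. The median of the basal list was -0.17 without control replicate 3 and -0.19 without folic acid replicate 2, that of the smooth muscle list was -0.10 without control replicate 1, -0.11 without folic acid replicate 2, -0.50 without control replicate 4 and -0.40 without folic acid replicate 3, and the endothelial one ran from -0.67 to -0.37 over the leave-outs. The 20 luminal markers had a median of 0.06, or -0.03 with library totals as the scale, and summed to between 7457.7 and 8891.5 CPM on the control diet and between 8391.5 and 9594.5 on the folic acid diet.

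**Figure D5:**
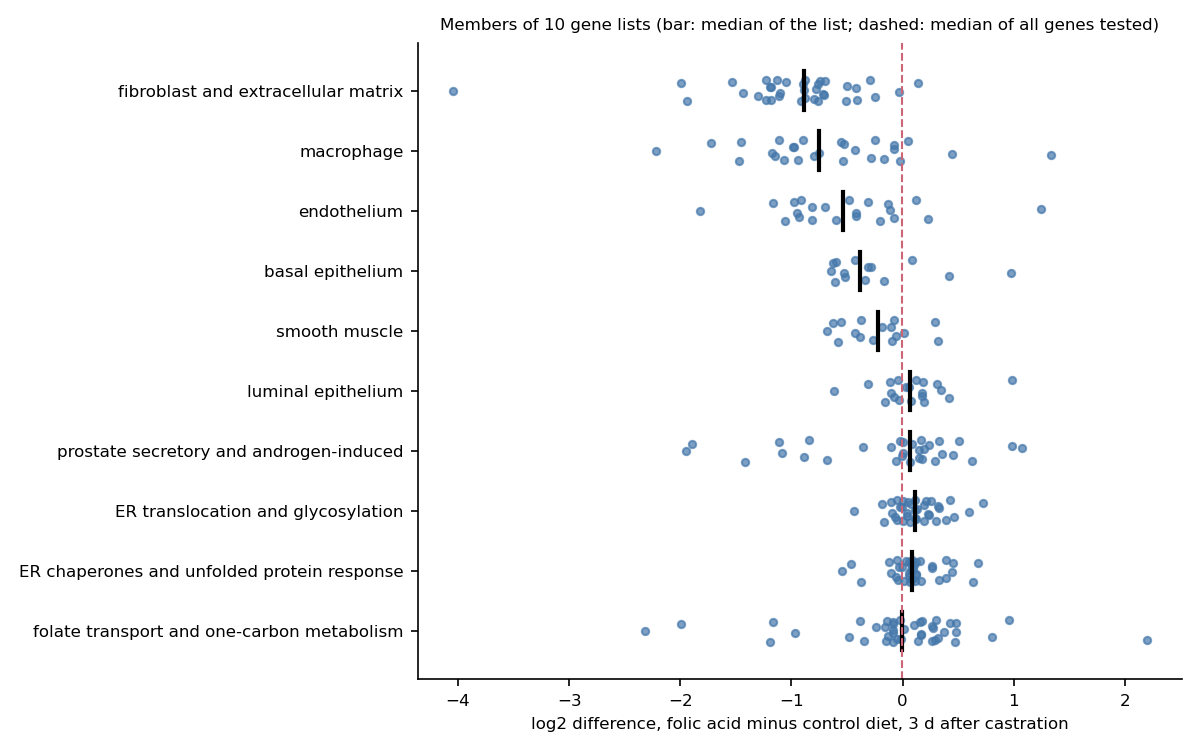
Each point is a tested member of 1 of 10 gene lists, placed by its log2 difference between diets at 3 d (folic acid minus control, horizontal axis), with a bar at the median of the list and a dashed line at the median of all genes, -0.01. The members of the fibroblast and extracellular matrix list lie almost all to the left of 0, with a median of -0.88, and those of the folate and 1-carbon list spread evenly about it.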

How the data were processed

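Messenger RNA of the ventral prostate was selected with oligo-dT, fragmented and copied from random hexamers, per the labels' protocols. Per the submitters' processing notes, the build was mm10, and the tools named are RSEM 1.2.3, Bowtie 0.12.9 and bcl2fastq 2.17.1.14. The authors deposited 1 table of expected counts, RSEM's estimates of reads per gene, not scaled between libraries. No source used here gives the strand or annotation of the counting, so reads of a gene and of an overlapping gene on the other strand may be mixed. Of the table's columns 1 matches no sample label and was not used.

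Expected counts were rounded, and genes were kept by filterByExpr (minimum count 10, minimum total 15), which left 13412 of 20308. In R 4.3.3, all 23 libraries entered 1 quasi-likelihood model of edgeR 4.0.16 (robust, TMM factors, a mean for each group), and DESeq2 1.42.0 was an alternative. The scripts were tested on simulated data. CPM values use the TMM factors, and a score uses a prior count of 2. The median SE of a log2 difference between diets at 3 d was 0.31.

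The comparison, the 41 gene lists and the members named were chosen with earlier results of these data known. Named were up to 12 called genes each way by smallest p, up to 3 members with the smallest p of each list, up to 4 genes of each interaction, 12 further genes of prostate and folate biology, and the cell type markers. Genes outside these are said to have been named after their values were seen. Lists were described by counts and medians, not tested. A few genes are not reported on. Positions are from GENCODE M21, which holds 12782 of the 13412 symbols tested, and promoters from RefSeq. Alternatives were another scaling, no filter, only the groups compared, a replicate block, DESeq2 and each 3 d library left out. No pair of libraries was identical, and Spearman correlations between 3 d libraries ran from 0.945 to 0.977. The labels give no sequencing batch or date.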

Additional observations from a re-analysis of the deposited data

Results flagged for a closer look

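In 3 of the 101 groups of 4 libraries examined for named genes, 1 library stood far from the other 3, where chance alone marks about 1 in 20 groups. All 3 are replicate 2 of a 10 d group. The intact and 10 d groups were examined for the 9 called genes only. At 3 d only the folic acid libraries were examined, and none of them was marked. The control group of 3 d, with 3 libraries, was not examined, so the check says nothing of those libraries. Fabp5 stood at 71.4 CPM in replicate 2 of the folic acid diet at 10 d, against 188.5 to 210.9 in the others. Stat5a stood at 16.2 CPM in replicate 2 of the control diet at 10 d, against 24.8 to 26.0, and at 32.2 CPM in replicate 2 of the folic acid diet at 10 d, against 14.3 to 16. Both Stat5a values move the 10 d means of the diets towards each other, which bears on the difference of -0.26 ± 0.25 given for Stat5a at 10 d.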

How the results depend on the processing

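With 2 genes called higher and 7 lower, DESeq2 called 7 and 21, all 9 among them, and a fit of only the groups compared called 2 and 13, with Gpx3 lost (adjusted p = 0.107). Library totals as the scale gave 10 calls, without Il13ra1 (adjusted p = 0.0803), no filter gave 10 and relative log expression factors 9, and the last 2 kept all 9. Leaving out 1 library gave 1 to 2 higher and 1 to 8 lower: 2 genes in all remained without folic acid replicate 2 or replicate 3, 4 without control replicate 4, 6 without control replicate 1 or folic acid replicate 1. Pdzk1 and Fabp5 were called under all 13 alternatives, Stat5a under 11, Gipc2, Gpr155 and Tsc22d3 under 9, Cxcl5 under 8, Il13ra1 under 7 and Gpx3 under 6. In the leave-outs the adjusted p of edgeR reached 0.0734 for Stat5a, 0.105 for Tsc22d3, 0.116 for Gipc2, 0.119 for Cxcl5, 0.129 for Gpr155, 0.134 for Gpx3 and 0.322 for Il13ra1, with the direction kept for each. The cause of these losses was not tested, though each leave-out has fewer samples.

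The replicate block gave 8 calls, without Cxcl5 and Gpx3 (adjusted p = 0.0967 for both) and with Sphk1 (-2.22, adjusted p = 0.0404). Same-numbered libraries deviated together with r = 0.03, 0.10 and 0.01 for numbers 1, 3 and 4. The value for number 3 was the highest of all pairs. Differently numbered libraries ran from -0.07 (control replicate 4 with folic acid replicate 3) to 0.04 (control replicate 4 with folic acid replicate 1). All these values were small, and the numbers were not taken as pairs in the main fit.

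The interaction with intact mice had 1 call with no filter, 1 with only the groups compared, 3 with DESeq2 and 0 to 1 in the leave-outs, and that with 10 d had 0 throughout. The median of the involution genes that rose was -0.008 with no minimum change and -0.182 with library totals, and that of the genes that fell 0.003 with library totals, where the median of all genes was -0.102. Of the named genes, none of them called, 4 turned in sign: over the leave-outs Pbsn ran from -0.69 to 0.49 (the latter without control replicate 1), Clu from -0.22 to 0.02 (without control replicate 3), Car2 from -0.19 to 0.18 (without control replicate 4, and 0.11 without folic acid replicate 4) and Mt2 from -1.20 to 0.16 (without control replicate 4), and Car2 was at 0 with the replicate block. The counts and medians of gene lists under other scalings and leave-outs were added after seeing the data. With 3 control libraries the typical SE of 0.31 limits what could be called.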
